A study of Rattus norvegicus with 34 samples.

Results

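Testes of unexposed rats were compared with each other, using 6 Control arrays that divide by the number of the animal. Control replicates 02, 03 and 04 carry the animal numbers 2553, 2558 and 2561, here the earlier numbers or earlier series. Control replicates 05, 06 and 07 carry the numbers 3144, 3145 and 3156, here the later numbers or later series. These 6 arrays, 3 against 3, are part of 31 arrays with values among 34 samples. All 6 animals were male Wistar Han rats on a diet with 0 ppm of fungicide, in a feeding study that ran from gestation day 6 to postnatal day 92, when total RNA was taken from the testis. Wistar Han is an outbred stock, so its animals differ in genotype. Each array is an Affymetrix rat genome array of 1 animal. The labels give no litter, time of day or hybridisation day, and they do not say what separates the earlier from the later numbers. Whatever else differed between the animal numbers therefore cannot be told apart from the numbers themselves.

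The later numbers recur in the exposed animals at 1 dose only. Of the 4 arrays with values of T1800, which is triadimefon at 1800 ppm, replicate 02 has the number 2696 and replicates 03, 04 and 05 have the numbers 3153, 3154 and 3170. The other 21 exposed arrays all have earlier numbers. They are M500 (3) and M2000 (5) for myclobutanil, P500 (4) and P2500 (5) for propiconazole and T500 (4) for triadimefon, where each number is the dietary level in ppm. All of these compounds are triazole fungicides and were fed over the same period. Control replicate 01 was not analysed here.

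The testis is a mixed tissue in which germ cells, from spermatogonia through meiotic spermatocytes to spermatids, develop within tubules supported by Sertoli cells. Leydig cells between the tubules make testosterone from cholesterol, and peritubular myoid cells, vessels, macrophages and fibroblasts surround the tubules. Testis RNA is dominated by late germ cells, and in an extract of whole tissue fewer cells of a type and less RNA per cell cannot be told apart.

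The 6 Control arrays had the make-up of adult testis. The protamine Prm1, which packs DNA in the sperm head, had the highest score of each array, 4.66, a value that quantile normalization sets equal in all. A score is the deposited expression value on a scale like a logarithm whose base is not given, so differences are stated in score units and not as folds. Odf1, a protein of the sperm tail, had scores of 4.24 to 4.52. Sycp3, of the meiotic chromosome axis, had scores of 2.75 to 3.10, and the Sertoli cell product Clu had scores of 2.98 to 3.22. The fat cell hormone gene Adipoq and the epididymal defensin Defb22 lay between percentiles 26.7 and 36.2 of all probe sets, so neither stood above the body of the array. Other genes of the marker lists used below did: Cst8 (1.93 to 2.84) and Aqp9 (1.01 to 1.20) for epididymis, Lipe (1.33 to 1.60) and Cidea (0.783 to 1.50) for fat cells. The remaining measured members of both lists scored lower than these. Adipoq and Defb22 alone thus do not show that fat or epididymis was absent. Alb, the liver's serum albumin, ranged from 0.132 to 1.65.

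RNA quality set 1 animal apart within each series of animal numbers. It was read from the gap between actin probes at the 3′ and 5′ ends of the transcript, which widens as RNA degrades. The gap was 1.67, 0.833 and 0.873 score units in Control 02, 03 and 04, and 0.878, 1.63 and 0.852 in Control 05, 06 and 07. One animal of each series, Control 02 and Control 06, thus had a wide gap (above 1.4), and the other 4 arrays lay together. The mean was 1.12 ± 0.470 (SD, n = 3) for the earlier and 1.12 ± 0.443 (SD, n = 3) for the later numbers, a difference of -0.00278 by a two-sided exact permutation test with p = 1. In the scores as deposited, where Control 02 had a gap of 2.51 and Control 06 of 1.42, the difference was -0.398 (exact permutation p = 0.6). With 3 against 3 the smallest p that this test can give is 0.1. The gap between GAPDH probes, another housekeeping transcript, gave the same picture, with 0.719 in Control 02, 0.644 in Control 06 and 0.204 to 0.304 in the other arrays. In the other groups the actin gap reached 1.60 in M500, 1.47 in M2000 and P2500, 1.33 in P500, 0.875 in T500 and 0.928 in T1800.

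**Figure D1:**
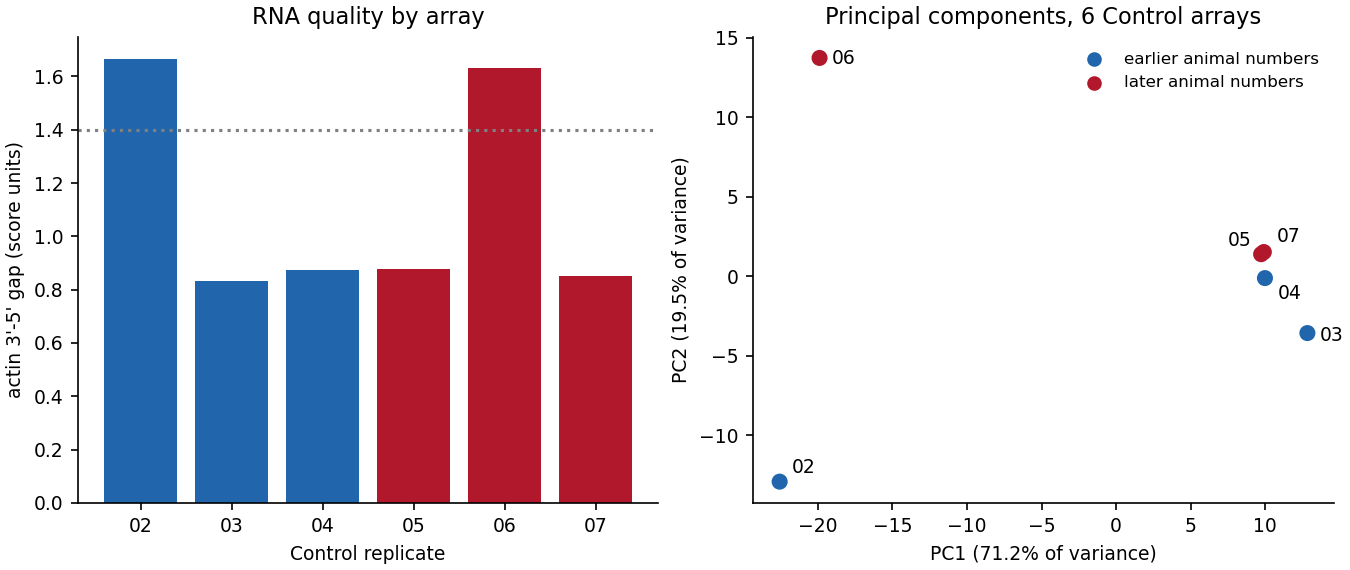
Left, the gap between 3′ and 5′ actin probes (score units) in each of the 6 Control arrays, with bars coloured by animal number and a dotted line at 1.4. Right, the first and second principal components of the same arrays; Control 02 and Control 06 lie apart from the other 4 arrays, which hold 2 animals of each series.

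The same 2 animals stood apart across the genome. The first principal component of the 6 arrays, with 71.2% of the variance, placed Control 02 at -22.6 and Control 06 at -19.9, and the other 4 arrays between 9.72 and 12.8. The second, with 19.5%, placed Control 02, 03 and 04 at -12.9, -3.58 and -0.122 and Control 05, 06 and 07 at 1.38, 13.7 and 1.52. It thus separated the 2 series without overlap (two-sided exact permutation p = 0.1, the smallest possible), with Control 02 and Control 06 at its ends. Among the 4 arrays of narrow gap, correlations over probe sets were 0.994 to 0.997 between the 2 series and 0.995 to 0.998 within them. Pairs of a narrow and a wide gap correlated at 0.954 to 0.965, and Control 02 with Control 06 at 0.976. Control 02 also had the widest deposited scores, with an SD of 0.928 against 0.667 to 0.697 in the other 5. Because the wide gaps fell in both series, each gene difference below is also given, where it matters, as 2 differences that share no array: the mean of Control 05 and 07 minus that of Control 03 and 04 (narrow gap), and Control 06 minus Control 02 (wide gap).

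No gene was called different between the unexposed animals of earlier and later numbers. Of 31042 probe sets, 0 (0%) passed a Benjamini-Hochberg adjusted p of 0.05 in limma's fit, and the smallest adjusted p was 0.0858. At an unadjusted p under 0.05 there were 2991 probe sets (9.64%), with 1394 higher (4.49%) and 1597 lower (5.14%) in the later animals. The spread in this fit is pooled over all groups of the 31 arrays. With only the 2 Control series in the fit, 993 probe sets were under that p and the smallest adjusted p was 1.0, and without Control 06 there were 1662. With the actin gap as a covariate there were 5312 and with array weights 4547. Scores of the 3 earlier and 3 later arrays did not overlap for 1547 probe sets (4.98%) with the later animals higher and 2067 (6.66%) with them lower. With 20 possible splits of 3 against 3, interchangeable arrays would give no overlap at a rate of 0.1, both directions together. A lack of overlap, here and below, is therefore not by itself a sign of a series difference. Differences between the series were small: the median absolute difference was 0.0380 over all probe sets and 0.0808 over the 3614 probe sets without overlap. The 95% interval of a difference, not adjusted for the number of probe sets, reached a median of 0.0908 to each side. Wider differences, such as 0.28 for the gene Tmbim1, were not called either, so the lack of calls does not show that the series were alike. Among the alternatives run, probe sets were called where array weights or the actin gap entered the fit and where Control 04 was left out. The counts were 208 (60 higher, 148 lower) with weights, 6 (all higher) with the gap and 36 (27 higher, 9 lower) without Control 04.

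**Figure D2:**
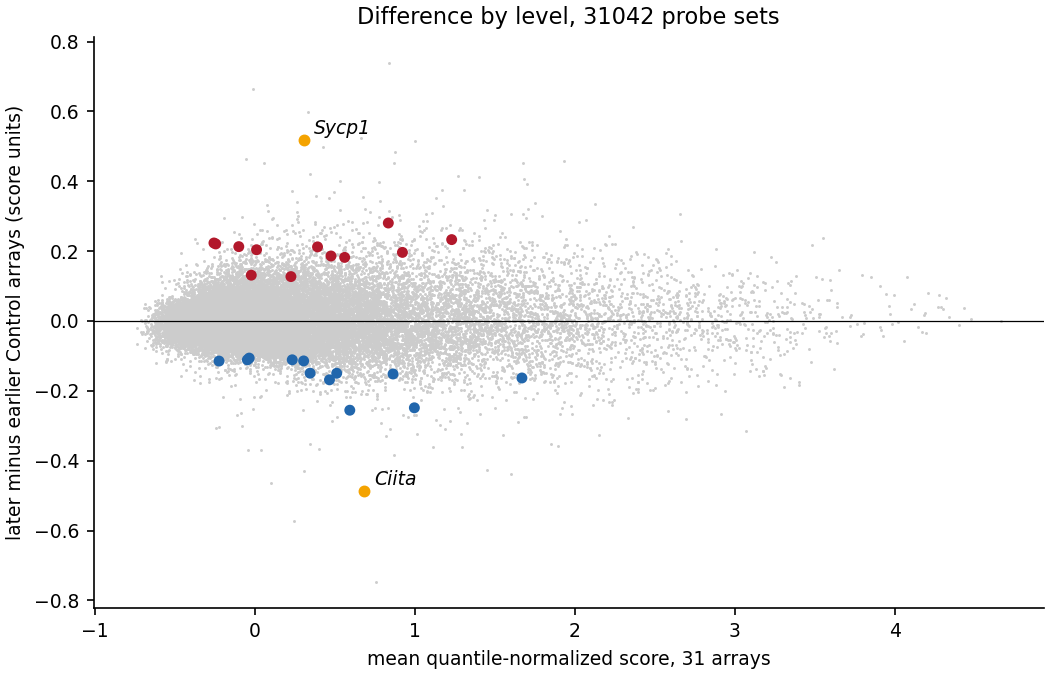
Difference of later minus earlier Control arrays (score units, vertical) against the mean score over 31 arrays (horizontal) for 31042 probe sets; red and blue points are the 12 genes of smallest p in each direction, and orange points are Ciita and Sycp1. The points of smallest p lie within 0.281 of 0, well inside the widest differences.

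The 12 genes of smallest p with higher scores in the later animals were led by a scaffold of microRNA silencing, Tnrc6a. Its scores were 0.260, 0.283 and 0.418 in Control 02, 03 and 04 and 0.523, 0.526 and 0.548 in Control 05, 06 and 07. The 3 later animals lay within a narrow band above all earlier ones, with a difference of 0.21 (SE 0.037, limma's adjusted p = 0.0858). Bfar, a membrane protein that restrains apoptosis, had scores of 0.0930, 0.150 and 0.166 in the earlier and 0.262, 0.259 and 0.270 in the later animals, a difference of 0.13 (SE 0.022, adjusted p = 0.0858). Zzef1, a zinc finger protein, had scores of 0.768, 0.804 and 0.794 against 0.925, 1.05 and 0.984, a difference of 0.20 (SE 0.036, adjusted p = 0.0977). Tnrc6a, Bfar and Zzef1 were the named genes called with the actin gap as a covariate, beside 3 probe sets without a gene symbol.

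Sting1, the adaptor through which cytosolic DNA starts an interferon response, had scores of -0.0781, -0.0727 and -0.0956 in the earlier and 0.0306, 0.0608 and 0.0558 in the later animals. The groups did not overlap, and the difference was 0.13 in the narrow gap pair and 0.14 in the wide gap pair. Ccnl1, a cyclin of the splicing machinery, had scores of 0.998, 1.04 and 1.22 against 1.26, 1.45 and 1.26. Here Control 04 came close to the later animals, and the difference was 0.13 in the narrow and 0.45 in the wide gap pair. Gad1, which makes the transmitter GABA, had low scores of -0.360, -0.282 and -0.225 against -0.0609, -0.159 and 0.0229. Its other probe set differed by 0.21 as well. The remaining 6 were Tmbim1, the chromatin protein Pwwp2a, the trafficking protein Vipas39, the mitochondrial chaperone Hspa9, Aida and Nif3l1. Differences of the 12 ran from 0.13 to 0.28, with adjusted p of 0.0858 to 0.252.

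The 12 genes of smallest p with lower scores in the later animals were led by a subunit of the actin machinery. Arpc4, a subunit of the Arp2/3 complex that branches actin filaments, had scores of 0.765, 0.780 and 0.664 in Control 02, 03 and 04 and 0.521, 0.384 and 0.537 in Control 05, 06 and 07. The difference was -0.26 (SE 0.050, limma's adjusted p = 0.129), the first in this direction. Eif6, which keeps large ribosomal subunits from joining too early, had scores of 1.19, 1.16 and 0.993 against 0.924, 0.738 and 0.940, a difference of -0.25 (SE 0.053, adjusted p = 0.252). Nle1, a factor of large subunit assembly, had scores of 0.418, 0.355 and 0.322 against 0.244, 0.237 and 0.271. All 3 genes had no overlap, and for each the wide gap pair differed more than the narrow one: -0.38 against -0.19 for Arpc4, -0.45 against -0.15 for Eif6 and -0.18 against -0.081 for Nle1.

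Stub1, a ubiquitin ligase that works with chaperones, had scores of 1.04, 0.917 and 0.881 in the earlier and 0.812, 0.775 and 0.794 in the later animals. Stard3, which moves cholesterol between late endosomes and other membranes, had scores of 0.603, 0.636 and 0.597 against 0.474, 0.476 and 0.436. Actg1, cytoplasmic gamma actin, had scores of 0.413, 0.412 and 0.460 against 0.273, 0.276 and 0.287. For Stard3 and Actg1 the spread within each series was small, and the narrow gap pair (-0.16 for both) differed by no less than the wide gap pair (-0.13 for Stard3, -0.14 for Actg1). The Actg1 probe set named here is the dimmer of a pair: the brighter had means of 3.42 and 3.36, a difference of -0.059 (SE 0.074). The others were Fry, Atxn10, the splicing regulators Sfswap and Rbm20, the neurotrophic receptor Gfra3 and the latent TGF-beta binding protein Ltbp3. Differences of the 12 ran from -0.26 to -0.11, with adjusted p of 0.129 to 0.252.

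Other probe sets of these genes did not always follow. For Tnrc6a, 3 further probe sets differed by 0.10, 0.075 and -0.021. Hspa9 was named through its dimmest probe set, and its 2 brightest differed by 0.14 and -0.039. The second probe set of Zzef1 differed by -0.053, against 0.20 for the named one. Sfswap had 2 brighter probe sets that differed by -0.10 and 0.036.

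**Figure D3:**
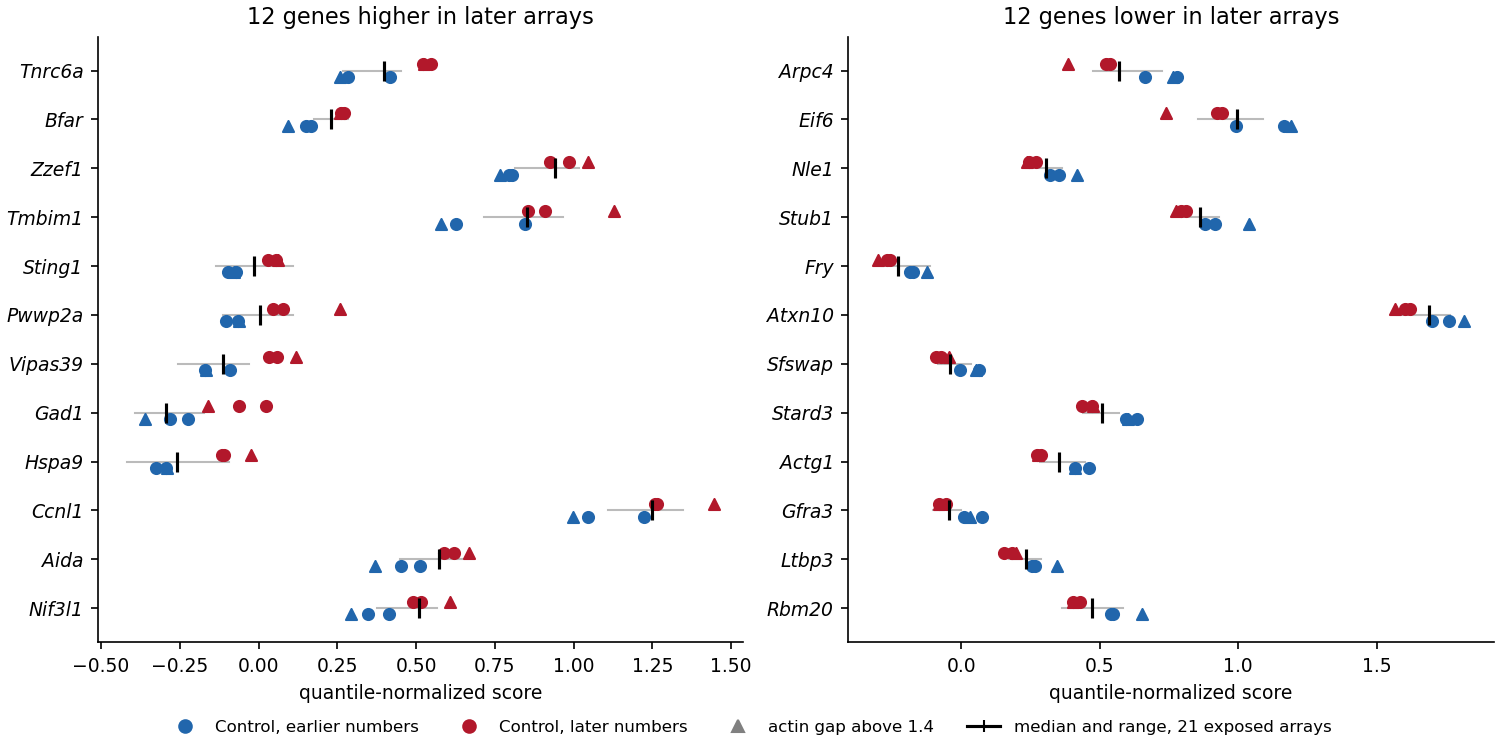
Quantile-normalized score (horizontal) of the 12 genes of smallest p in each direction, with 1 point per Control array; triangles mark Control 02 and Control 06, and a grey line with a black tick gives the range and median of 21 exposed arrays with earlier numbers. In all 24 genes the blue and red points do not overlap, and in 23 of them the exposed median falls between the means of the 2 colours.

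All 24 genes had the same sign in the narrow and in the wide gap pair, since genes without overlap between the 2 series must. Over the whole array the 2 pairs share no animal, and 59.1% of 31042 probe sets had the same sign in both (Pearson r = 0.248, Spearman coefficient 0.255 across probe sets, which are not independent and were normalized together). Of 1754 probe sets with an unadjusted p under 0.05 when arrays with an actin gap above 1.4 were left out, 1219 (69.5%) had the same sign in Control 06 minus Control 02. These were 556 of 792 with higher and 663 of 962 with lower scores in the later animals. Since a single animal stands on each side of the wide gap pair, its values carry no replicate check.

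Exposed animals with earlier numbers were set beside the same genes. Their median over 21 arrays lay between the means of the earlier and later Control animals for 23 of the 24 genes. It was nearer to the later Control animals for 17 genes and nearer to the earlier ones for 7. Genes picked for a wide split between the 2 series favour such a position: the median lay between the means for 46.8% of all probe sets and for 89.0% of the 3614 without overlap, where it was nearer to the later animals for 55.0%. For Zzef1 the exposed median was 0.941 with a range of 0.814 to 1.02, above all 3 earlier Control animals. For Stub1 it was 0.863, with a range of 0.800 to 0.932, below the scores of 1.04, 0.917 and 0.881 in the earlier Control animals. For Tnrc6a the exposed range of 0.269 to 0.453 held 2 of the 3 earlier Control animals and no later one. In Gad1 the range of -0.391 to -0.172 held all earlier Control animals and none of the later ones. The exposed arrays covered scores of the earlier Control animals in Gad1 and lay above them in Zzef1, 2 genes picked as examples from the 24. All 21 arrays have earlier numbers and are of exposed animals, so exposure and number cannot be told apart in them.

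T1800 gives the only other contrast of earlier and later numbers, with 1 array against 3. It had 0 called probe sets (0%) in limma's fit, a smallest adjusted p of 0.0809 and 140 at an unadjusted p under 0.05 (0.451%). This share lies under the 0.05 expected where nothing differs, as does that of the interaction below. The lack of calls in either therefore does not show that the animals were alike. Of the 24 genes, 15 had the same sign in T1800 as in Control, 9 with higher and 6 with lower scores. These genes were chosen by their Control difference, so the sizes are not compared. Over the 12 higher genes the T1800 difference ran from -0.10 to 0.056, and over the 12 lower genes from -0.041 to 0.050. Tnrc6a, for example, had a score of 0.368 in T1800 02 and 0.446, 0.405 and 0.423 in T1800 03, 04 and 05. Zzef1 had 0.916 in T1800 02 and 0.900, 0.899 and 0.948 in the later animals, so that replicate 02 lay inside the range of the later ones.

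Over all probe sets the Control and T1800 differences had the same sign for 53.0%, with Pearson r = 0.060 and a Spearman coefficient of 0.075. For the 2991 probe sets with an unadjusted p under 0.05 in Control, 1771 (59.2%) had the same sign in T1800, where the median difference in that direction was 0.0080. They were selected in Control alone, and T1800 has 1 array on one side, so no comparison of size is made. The difference between the 2 contrasts was tested as an interaction, which called 0 probe sets (0%), with 462 (1.49%) at an unadjusted p under 0.05 and a smallest adjusted p of 1.0. A fit with the diet group and the number series as separate terms over the 10 Control and T1800 arrays also called 0 (0%), with 1370 (4.41%) at an unadjusted p under 0.05 and a smallest adjusted p of 0.946. The genes of smallest p in that fit were Cobl, Fgd6 and Foxd3 with lower and Vps37b, Med1 and Dph5 with higher scores in the later animals. Med1, a subunit of the Mediator complex of transcription, had scores of 0.740, 0.761 and 0.730 in the earlier and 0.854, 0.861 and 0.822 in the later Control animals. In T1800 it had 0.719 in replicate 02 and 0.818, 0.747 and 0.791 in the later replicates. The later T1800 animals were all above replicate 02, and the common difference was 0.090 (SE 0.022, limma's adjusted p = 0.946). Med1 was chosen by this fit, which used the T1800 arrays, so their direction is no separate check. Its other probe sets differed by 0.038 and -0.014 between the Control series.

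The 3 widest differences among named probe sets were those of RT1-Bb (2 probe sets) and of the second Ciita probe set (-0.57), genes of antigen presentation. MHC class II molecules display peptides to helper T cells, and each is a pair of an alpha and a beta chain encoded by genes that vary greatly between individuals. RT1-Bb encodes a class II beta chain and is measured by 2 probe sets. The first had scores of 0.618, 1.08 and -0.0609 in Control 02, 03 and 04 and 1.21, 1.16 and 1.48 in Control 05, 06 and 07, a difference of 0.74 (SE 0.41, limma's adjusted p = 0.585). The second had 0.601, 1.16 and 1.48 in the earlier and 0.796, 0.451 and -0.252 in the later animals, a difference of -0.75 (SE 0.40, adjusted p = 0.569). The 2 probe sets of 1 gene thus differed in opposite directions, and Control 04 and Control 07 were each other's reverse.

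This reciprocal pattern held over all 31 arrays, exposed animals included. In 6 arrays, 1 of them a Control, the first probe set was under 0.5, and the second then lay between 1.48 and 1.59. In 10 arrays, 2 of them Controls, the second was under 0.5, and the first lay between 1.09 and 1.51. In the other 15 arrays, 3 of them Controls, the first lay between 0.525 and 1.21 and the second between 0.601 and 1.16, and in 0 arrays were both under 0.5. These 3 sets come from the line of 0.5 and not from a clear gap in the second probe set, which had 0.451 in Control 06 and 0.601 in Control 02. No correlation is given. The line of 0.5 was drawn after the scores were seen, and probe sets of MHC genes can take up signal from related genes.

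**Figure D4:**
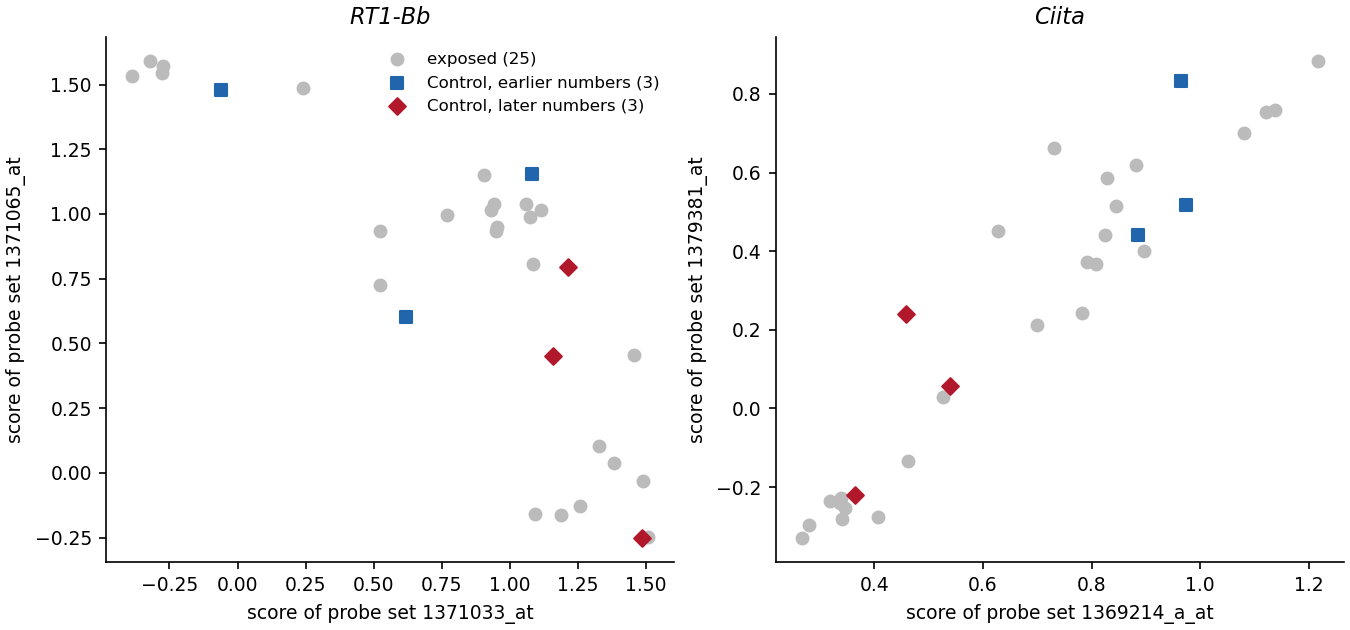
Scores of the 2 probe sets of RT1-Bb (left) and of Ciita (right), 1 point per array for 31 arrays; blue squares are Control animals with earlier numbers, red diamonds Control animals with later numbers and grey circles 25 exposed animals. For RT1-Bb a low score of one probe set goes with a high score of the other and no array is low in both, while for Ciita both probe sets are high or low together.

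Ciita, the transactivator that switches on MHC class II genes, had scores of 0.964, 0.973 and 0.885 in the earlier and 0.539, 0.458 and 0.364 in the later Control animals. The 2 series were far apart, with a difference of -0.49 (SE 0.14, limma's adjusted p = 0.323), of -0.48 in the narrow and -0.51 in the wide gap pair. Its second probe set ran the same way, with 0.834, 0.518 and 0.442 against 0.0579, 0.240 and -0.221, a difference of -0.57 (SE 0.20). Exposed animals with earlier numbers covered both levels. The 4 P500 animals had scores of 0.267 to 0.347, lower than every Control animal, and the 5 P2500 animals had 0.628 to 1.22. M500 animals had 0.828 to 1.08, M2000 0.340 to 0.825 and T500 0.342 to 0.783. In T1800 the earlier animal had 0.792 and the later ones 0.280, 0.845 and 0.808, so the later animals lay on both sides of the earlier one. With a single earlier array, T1800 cannot show whether the score goes with the number. Over the 31 arrays, the second probe set lay between -0.329 and 0.240 in the 13 arrays in which the first was under 0.6, and between 0.211 and 0.885 in the other 18. That line, too, was drawn after the scores were seen.

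Other genes of the MHC list followed Ciita only in part. Cd74, the class II invariant chain and a target of Ciita, had scores of 0.901, 1.09 and 0.995 against 0.966, 0.616 and 0.910, and the 2 series overlapped. RT1-DMb, which helps load class II molecules with peptide, had 0.224, 0.238 and 0.242 against 0.208, 0.0950 and 0.190, without overlap and with a difference of -0.070. Of 20 measured members, 0 passed the adjusted test and 1 (Ciita) had an unadjusted p under 0.05, with a median difference of -0.042. The 2 series did not overlap for 2 members with the later animals higher and for 2 with them lower. Over all 14217 genes, with 1 probe set each, 3.52% were higher and 5.67% lower at that p, 3.73% and 6.91% did not overlap in those directions, and the median difference was -0.012. These are the values beside which the gene lists are read.

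Germ cell markers gave no call. Of 12 measured spermatocyte markers 0 passed the adjusted test. At an unadjusted p under 0.05, 3 were higher (Spo11, Sycp1 and Tex15) and 1 was lower (Msh5), with a median difference of 0.028. Sycp1, the filament that joins paired chromosomes in the synaptonemal complex, had scores of 0.246, -0.155 and 0.0695 in the earlier and 0.509, 0.549 and 0.653 in the later animals. Its difference of 0.52 (SE 0.16, limma's adjusted p = 0.328) was 0.62 in the narrow and 0.30 in the wide gap pair. All later animals were above all earlier ones, yet the 21 exposed arrays ran from -0.0329 to 0.674, with M2000 at 0.375 to 0.674 and T1800 05 at 0.588.

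Spo11, which cuts DNA to start meiotic recombination, had 0.482, 0.532 and 0.689 against 0.694, 0.906 and 0.645. The 2 series overlapped, and the difference of 0.18 was 0.059 in the narrow and 0.42 in the wide gap pair. Tex15, needed for repair of meiotic breaks, had 0.831, 0.841 and 0.984 against 0.977, 1.10 and 0.971, also with overlap. The mismatch repair homologue Msh5, which acts in crossing over, had 0.117, 0.179 and 0.228 against 0.145, 0.0777 and 0.0991. For Spo11 and Tex15 the highest score was that of Control 06, with the wide gap of 1.63; the part of RNA quality in this was not tested.

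Among 22 spermatid markers, Cimap1a (formerly Odf3), of the sperm tail, was the only one with an unadjusted p under 0.05. Its scores were 2.42, 2.65 and 2.69 against 2.75, 2.69 and 2.77, so that Control 02 alone lay low. The list's median difference was 0.014. Acrv1, of the acrosome, and Prm3, a protamine-like protein, were lowest in the 2 arrays of wide gap: Acrv1 had 1.26 in Control 02 and 1.90 in Control 06 against 2.24 to 2.37 in the others, and Prm3 had 2.69 and 2.21 against 3.21 to 3.39. Both were picked after their scores were seen. Spermatogonial markers, 12 measured, had 2 with an unadjusted p under 0.05, Lin28a (-0.069) and Nanos3 (-0.061), both lower and both regulators of RNA in early germ cells. Sertoli cell markers, 15 measured, had 0 in either direction and a median difference of -0.025, and their summed score, the mean over the list, was 1.09 to 1.21 in the earlier and 1.11 in each later animal.

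Leydig cell and steroid genes gave no call. Of 19 measured, 0 passed the adjusted test and 1, Hsd11b1, had an unadjusted p under 0.05, with a list median of -0.039. In 3 others the 2 series did not overlap, with the later animals lower: the steroid dehydrogenases Hsd17b10 (-0.12) and Hsd17b3 (-0.036) and the aldo-keto reductase Akr1c14 (-0.039). Hsd11b1, which interconverts active and inactive glucocorticoid, had scores of 0.939, 1.19 and 1.45 against 1.43, 1.33 and 1.41, with Control 02 and 03 low and Control 04 the highest of all. Insl3, a hormone of Leydig cells, had 0.518, 1.35 and 1.35 in the earlier and 1.34, 0.465 and 1.20 in the later animals. The low scores were those of Control 02 and Control 06, the arrays of wide actin gap, and the difference between the 2 series was -0.071 (SE 0.24, limma's adjusted p = 0.964). Star, which carries cholesterol into mitochondria, had 0.398, 0.604 and 0.818 against 0.630, 0.601 and 0.480, and Cyp17a1, of androgen synthesis, had 1.42, 1.56 and 1.89 against 1.52, 1.57 and 1.35. Neither gene separated the animals by number.

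Cholesterol genes gave no call. Of 23 measured, 3 had an unadjusted p under 0.05, all lower: Mvd, Stard4 and Lss, with a list median of -0.025. Mvd, which completes the making of isopentenyl units, had scores of 0.608, 0.546 and 0.493 against 0.435, 0.348 and 0.438, a difference of -0.14 (SE 0.050, adjusted p = 0.363). Lss, which closes the sterol ring, had 0.272, 0.310 and 0.291 against 0.250, 0.169 and 0.245, and the cholesterol carrier Stard4 had 0.0503, 0.0195 and 0.0123 against -0.0321, -0.0208 and -0.0510. In none of these probe sets did the 2 series overlap, but the second probe set of Lss differed by 0.023, and the others of Stard4 by 0.037 and -0.024. Cyp51, the sterol demethylase whose fungal form triazoles inhibit, had 1.42, 1.08 and 1.15 against 1.08, 1.55 and 1.10. Its high scores were again those of Control 02 and Control 06, and the difference was 0.029 (SE 0.17, limma's adjusted p = 0.980). Its dimmer probe set differed by -0.12 (SE 0.041, adjusted p = 0.363).

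Clock genes were set out because time of day is not in the labels. Of 20 measured, 0 passed the adjusted test, 2 were higher (Wee1 and Rora) and 1 lower (Per2) at an unadjusted p under 0.05, and the median difference was 0.025. Dbp, an output of the clock with a steep daily rhythm in many tissues, had scores of 0.0294, 0.0844 and 0.183 against 0.129, -0.0813 and 0.108, with wide overlap. Per1 had 0.798, 0.984 and 1.15 against 1.08, 0.865 and 1.05, and Per3 had 0.0786, 0.252 and 0.289 against 0.311, 0.219 and 0.307. Control 02 was the lowest of the 6 arrays in Per1, Per3 and Bmal1, which had -0.147 there and 0.0279 to 0.0900 in the others. It was also the lowest in Nr1d1, Wee1, Rora and Csnk1d, but the highest in Npas2, Cry2, Hlf, Nfil3 and Bhlhe40. Nr1d1, a repressor in the clock loop, had -0.0781, -0.0169 and 0.0735 against 0.0564, 0.0383 and 0.0860. Per2 had 0.391, 0.452 and 0.432 against 0.386, 0.242 and 0.341, a difference of -0.10 (SE 0.038, limma's adjusted p = 0.399), and its second probe set differed by 0.056 in the other direction. Wee1, a kinase that holds cells before mitosis and is an output of the clock, had 0.555, 0.614 and 0.663 against 0.698, 0.892 and 0.701. Rora, an activator of Bmal1, had -0.181, -0.111 and -0.160 against -0.0197, -0.100 and -0.0236.

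Control 02 stood at the end of the range, mostly the upper one, in many stress and handling genes. Over 57 genes of 3 lists (glucocorticoid targets, immediate early genes, heat and cold shock) it had the highest of the 6 scores in 26 and the lowest in 11. The same count over all probe sets was not made. Control 02 also stood apart across the genome, so the tally is not read as a trait of these lists. Among 17 glucocorticoid targets, 1 was lower at an unadjusted p under 0.05: Tsc22d3 (GILZ), with 0.730, 0.379 and 0.334 against 0.273, 0.322 and 0.300. Control 02 made most of this difference, which was -0.41 in the wide and -0.070 in the narrow gap pair. The metallothionein Mt1 had 1.72 in Control 02, 0.694 in Control 06 and 0.216 to 0.265 in the others. Of 22 immediate early genes 3 were lower (Ier2, Ccn1 and Zfp36) at that p. Ier2 had -0.105, -0.242 and -0.189 against -0.276, -0.274 and -0.281, and Jund, an AP-1 subunit, had 2.27 in Control 02 and 1.14 to 1.30 elsewhere. Of 19 heat and cold shock genes 1 was lower, Hspa1l, a testis form of the Hsp70 chaperone, with 1.08, 0.794 and 0.810 against 0.719, 0.649 and 0.669. The cold-induced RNA binding protein Cirbp had 1.70, 1.21 and 1.22 against 1.09, 0.981 and 1.14. Control 02 had the top score in each of Tsc22d3, Mt1, Ier2, Jund, Hspa1l and Cirbp; its actin gap was 1.67, and the part of RNA quality was not tested. Mt1, Jund and Cirbp were picked after their scores were seen, and the related Mt2A ran the other way in Control 02, with 1.97 against 2.23 to 2.38 in the 4 arrays of narrow gap.

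Of 20 hypoxia genes 2 were higher, the vessel growth factor Vegfa (0.091) and the collagen hydroxylase P4ha1 (0.076), and 1 was lower, the glycolytic enzyme Hk2 (-0.066), at an unadjusted p under 0.05. The other probe set of Vegfa differed by -0.058. Of 21 interferon genes 1, Mx2, was lower, with 0.0115, -0.187 and -0.0902 against -0.245, -0.221 and -0.286. Xenobiotic genes, 25 measured, had 1 lower, Cyp1b1, an oxidase of aromatic compounds and estrogens, with 1.42, 1.18 and 1.4 against 1.20, 1.12 and 1.04. The 16 antioxidant genes of the NRF2 pathway had 0 in either direction at that p, and limma's adjusted test called 0 in each of these lists. The lists as wholes were not tested. Their medians, beside -0.012 over all genes, were -0.022 (hypoxia), -0.0078 (interferon), -0.040 (xenobiotic) and -0.035 (NRF2).

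Supporting and foreign cell types gave no call either. Of 13 peritubular and smooth muscle markers 1 was lower at an unadjusted p under 0.05, the tropomyosin Tpm2, with 0.943, 0.510 and 0.382 against 0.397, 0.357 and 0.383; the narrow gap pair differed by -0.056 and the wide one by -0.59. Of 13 endothelial markers 2 were lower, the receptor Tie1 (-0.076) and the junction protein Cldn5 (-0.084). Tie1 had -0.115, -0.0486 and -0.0812 against -0.163, -0.153 and -0.157, without overlap. The 15 fibroblast and matrix genes had 1 lower, the collagen Col5a1 (-0.10). Of 9 erythrocyte genes 1 was higher, the transferrin receptor Tfrc (0.15), and 1 lower, the globin Hbg1 (-0.073). Macrophage (18), lymphocyte and mast cell (16), epididymis (8), adipocyte (12) and liver (21) markers had 0 in either direction at that p. Without overlap, and lower in the later animals, were 2 of the epididymis markers (Defb1 and Adam7) and 2 of the adipocyte markers (Adipoq and Lipe).

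Liver markers had the lowest median of the 24 lists, at -0.075, and 4 of 21 did not overlap, all lower in the later animals. These were Hp, Apob, Mup5 and Cyp2e1. The list's median was -0.105 in the narrow gap pair and 0.038 in the wide gap pair, so its direction turned between them. Haptoglobin, Hp, had 1.11, 1.12 and 1.14 against 0.942, 0.719 and 0.856, a difference of -0.29 (SE 0.21, limma's adjusted p = 0.714). Alb had 0.132, 1.65 and 1.55 against 0.981, 1.32 and 0.599, so it differed more between animals than between the 2 series, and its range in P2500 reached from -0.124 to 4.15. The summed liver score was -0.0919 to 0.192 in the earlier and -0.0307 to 0.0347 in the later animals.

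**Figure D5:**
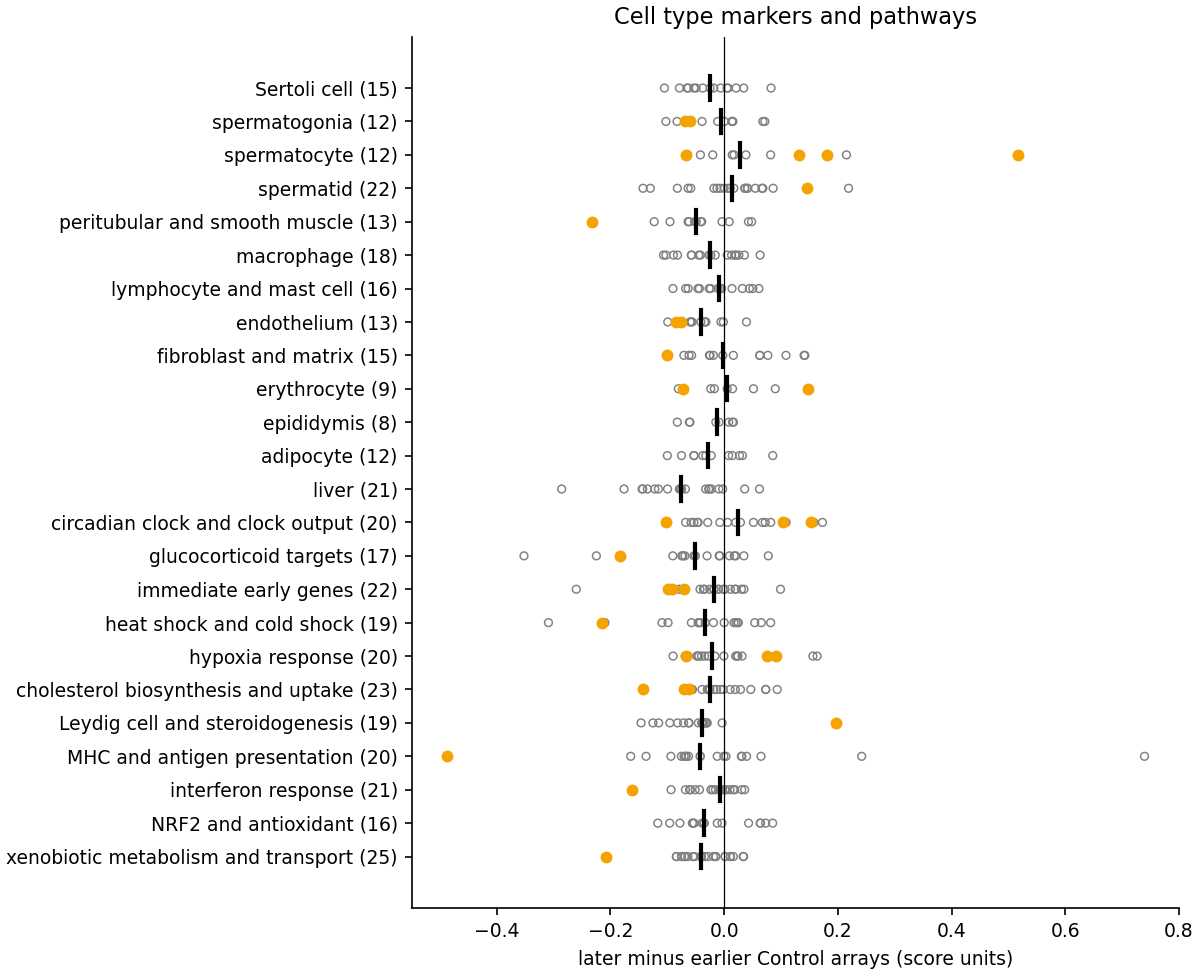
Difference of later minus earlier Control arrays (score units) for each measured member of 24 lists, with the number measured in brackets; filled orange points have an unadjusted p under 0.05, open points do not, and a black bar is the list's median. Medians lie between -0.075 (liver) and 0.028 (spermatocyte), and the points of the MHC list reach furthest to both sides.

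Taking the lists as one, 401 of 484 listed genes were measured. At an unadjusted p under 0.05, 10 (2.49%) were higher and 21 (5.24%) lower, against 3.52% and 5.67% over all genes. The listed genes without overlap numbered 10 higher and 31 lower, against 3.73% and 6.91% over all genes. The median difference of the 401 genes was -0.025.

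A pair of genes that stand high in T1800 animals was checked for its spread in unexposed ones. The pair was chosen with earlier results of these arrays known, so its high scores in T1800 are no separate finding. In the 21 other exposed arrays the median was 0.309 (range 0.149 to 0.859) for Arhgef28 and 0.254 (range 0.145 to 0.432) for S100b. Arhgef28 had scores of 0.241, 0.336 and 0.188 in the earlier and 0.334, 0.388 and 0.359 in the later Control animals, a difference of 0.11 (95% interval -0.088 to 0.30; limma's adjusted p = 0.785). Its scores in T1800 were 0.816 in the earlier animal and 0.521, 0.950 and 0.718 in the later ones, above all Control animals. Its second, dimmer probe set differed between the 2 Control series by -0.099, in the other direction. S100b, a calcium-binding protein, had 0.172, 0.205 and 0.259 against 0.245, 0.152 and 0.195, a difference of -0.014 (95% interval -0.13 to 0.096; adjusted p = 0.968). In T1800 it had 0.518 in replicate 02 and 0.368, 0.544 and 0.398 in the later ones, again above all 6 Control animals.

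Among the 12 widest differences of named probe sets, genes outside the lists were picked after their scores were seen. Dhx36, a helicase that unwinds G-quadruplexes, had 0.933, 0.654 and 0.756 against 1.23, 1.48 and 1.17, without overlap (difference 0.51, SE 0.15, limma's adjusted p = 0.323). Arhgap26 had -0.187, -0.200 and -0.158 against 0.197, 0.279 and 0.371, also without overlap (difference 0.46, SE 0.17, limma's adjusted p = 0.398). Uba6, an enzyme that activates ubiquitin, had 0.484, 0.771 and 0.928 against 1.15, 1.41 and 0.979. Dnai1, a dynein chain of the sperm tail, had 1.91, 1.15 and 1.38 against 1.75, 2.11 and 1.94, and the 2 series overlapped. Wtap, a subunit of the RNA methylation complex, had 1.72, 1.70 and 1.83 against 1.4, 1.68 and 0.892, with Control 07 far below the rest. None had an adjusted p under 0.32.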

How the data were processed

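The values of 31099 probe sets on 31 arrays were deposited by the authors as a score per probe set. No scale, log base or software for them is given in the sources used here. Array medians were near 0 and spreads unequal, so scores were quantile normalized over the 31 arrays here. After that, 57 control probe sets were left out, and 31042 probe sets were tested. In the deposited table, 3 columns belong to samples without values. limma 3.58.1 in R 4.3.3 fitted 1 mean per group, with Control and T1800 divided by animal number, and adjusted p over all probe sets by Benjamini-Hochberg. Gene names came from the platform annotation: 20826 probe sets had 1 symbol, 436 several and 9780 none. A list member stands for its brightest probe set. The rule named genes by smallest p (12 per direction; list members under an unadjusted p of 0.05, up to 4), by smallest p of the fit with diet group and number series as separate terms (3 per direction), or from a set list. Members, lists and the rule were chosen with earlier results of these data known. The p-values rest on the spread between animals pooled over all groups, exposed ones included. The fitting code was checked on simulated data.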

Additional observations from a re-analysis of the deposited data

Results flagged for a closer look

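In 4 of 74 named genes or measures tested, the score of 1 Control array lay further from the other 5 than Dixon's 95% critical value allows, and in all 4 that array was Control 02, one of the 2 with a wide actin gap. Chance flags about 1 group in 20. Cimap1a, of the sperm tail, had 2.42 in Control 02, below the other 5 arrays. The tropomyosin Tpm2 had 0.943 there, above the others, and so had the glucocorticoid target Tsc22d3 with 0.730. Bmal1, a core clock activator, had -0.147 in Control 02, below the others. The part of RNA quality in these 4 was not tested.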

How the results depend on the processing

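No paired analysis was possible because the groups compared share no replicate numbers. For Control, 0 calls remained with the scores as deposited, only the brighter probe sets (above the median of mean scores), 1 probe set per gene, only the groups compared, eBayes with trend and robust, T1800 as 1 group (smallest adjusted p 0.0541), and with arrays of wide actin gap left out. Further alternatives chosen after seeing the data, a block for the gap and Control 02 and 06 left out together, also gave 0. Array weights, which put Control 02 at 0.123 and Control 06 at 0.169, called 208 probe sets in Control, 3 in T1800 and 5 in the interaction; 78 of the 208 overlap between the 2 series, and 17 of the 24 genes were among them. The actin gap as a covariate called 6 in Control and 1 in T1800, and with those of wide gap left out T1800 had 3. Leaving out 1 array gave 0 to 36 calls in Control, with 36 only without Control 04 and 9 of the 24 genes among them, 0 to 2 in T1800, 0 in the interaction and 0 to 1 in the fit over both. The actin gap difference ran from -0.258 to 0.268 when 1 array was left out. The array weights of Control 03, 04, 05 and 07 were 0.901, 2.37, 3.74 and 2.39, so the weighted mean of the earlier series rested mostly on Control 04. Of the 208 probe sets called with weights, 75 had their score farthest from the median in Control 04. The causes were not tested.

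Of 1431 differences of 73 named genes over 20 settings, 1372 kept direction and side of the threshold, 33 became called and 26 reversed. With deposited scores Cimap1a was at -0.304, Per1 at -0.0286 and Cyp51 at -0.122; with weights Per1 was at -0.0310 and Cyp51 at -0.0375; without the wide gap arrays Per1 was at -0.0032 and Cyp51 at -0.0235. With 1 array left out, differences ran from -0.0687 to 0.106 for Per1, -0.348 to 0.197 for Insl3, -0.124 to 0.129 for Cyp51, -0.633 to 0.126 for Alb, -0.0384 to 0.00909 for S100b, -0.141 to 0.0697 for Star and -0.0854 to 0.0195 for Dbp.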
